A study of Homo sapiens with 6 samples.

Results

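The nuclear genes of the respiratory chain and ATP synthase were examined in A673/TR/shEF cells, an Ewing sarcoma line in which EWSR1::FLI1 can be switched down. Gene symbols of the deposited table were matched to the name patterns of the subunits of complexes I to V, with the 4 SDH genes, CYC1 and CYCS added by name. The rule found 95 of 26364 rows. Of these, 83 were subunit genes or cytochrome c (36 of complex I, 4 of complex II, 9 of complex III, 18 of complex IV, 15 of complex V and CYCS), and the other 12 were a supercomplex factor, gene copies, antisense and readthrough transcripts and 2 genes that code for no subunit. A filter on low values, a mean of at least 0.5 FPKM (fragments per kilobase of transcript, scaled to the sequencing depth) over the 6 libraries, left 85 of the 95 rows for testing, 77 of them subunits or cytochrome c.

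A673 is a Ewing sarcoma cell line with the EWSR1::FLI1 fusion, here carrying a doxycycline-inducible shRNA against the fusion transcript and kept in DMEM with 10% FBS, blasticidin and zeocin. The RNAseq data comprised 3 untreated samples, called EWSR1::FLI1 high, and 3 samples given doxycycline at 1 µg/mL for 72 h, called EWSR1::FLI1 low, each numbered 1 to 3. Both groups carried the shRNA construct and differed in the drug, so an effect of doxycycline itself cannot be told apart from that of the knockdown. The submitters describe the samples of a group as independent clones in one place and number them as experiments in another, so p-values measure the spread between these samples, whatever its source.

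Complexes I to IV pass electrons from NADH and succinate to oxygen in the inner mitochondrial membrane and, except for complex II, pump protons across it. Complex V, the ATP synthase, lets the protons back and makes ATP. Most subunits are coded in the nucleus and imported, whereas a small core is coded by mitochondrial DNA, for which the table held 0 rows. In many cell types the nuclear subunits are transcribed together, with the factors NRF1 and GABP, an ETS protein, among the known regulators of their promoters. FLI1 is also an ETS protein.

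The members were among the more abundant transcripts of these cells. The median subunit had a mean of 64.0 FPKM, against 6.62 FPKM for the median gene tested, and 7.39% of all genes tested lay above it. The markers of the pathway, NDUFS1, SDHA and CYC1, had means of 88.2, 43.2 and 67.9 FPKM.

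Because the members share regulators, their promoters were searched for the ETS core CCGGAAGT and for GCATGCGC, the core of the NRF1 palindrome, on both strands of RefSeq windows from 250 bases before to 50 bases after each gene start (GRCh38 table). Of the 77 subunits tested, 64 matched the table, and among those without an entry were NDUFS5, NDUFB5, NDUFB9, NDUFC2, SDHC, UQCRB, CYC1, COX6C, ATP5B, ATP5D, ATP5G3 and ATP5J2. The ETS core was found at 11 of the 64 genes (17.2%), against 4.95% of all 27305 genes with a window and 12.4% of 4916 other genes with a mean of at least 10 FPKM. GCATGCGC was found at 15 of the 64 (23.4%), against 3.68% and 7.24%. It was present at 6 of 31 genes of complex I, 2 of 3 of complex II, 0 of 7 of complex III, 2 of 11 of complex IV, 4 of 11 of complex V and at CYCS. These are matches of letters and not measured binding sites.

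The promoters of SDHD, COX5B, SDHB, NDUFA5 and COX8A are shown, 250 bases each, 5′ to 3′ on the strand of the gene, with the matches in capitals. SDHD (chr11:111957347-111957596, + strand) and COX5B (chr2:98262275-98262524, + strand) are shown because they hold both motifs. SDHB (chr1:17380528-17380777, - strand) and NDUFA5 (chr7:123197873-123198122, - strand) hold the NRF1 core and were among the members with the largest decreases, and COX8A (chr11:63741842-63742091, + strand) holds the ETS core close to the start. Coordinates are of GRCh37, found by an exact match of each sequence. The RefSeq starts used here can differ from the GENCODE gene positions given below, so the stretches of SDHD and NDUFA5 overlap those positions. In SDHD the 10 capitals of the first match hold the NRF1 core on both strands, overlapping.
SDHD: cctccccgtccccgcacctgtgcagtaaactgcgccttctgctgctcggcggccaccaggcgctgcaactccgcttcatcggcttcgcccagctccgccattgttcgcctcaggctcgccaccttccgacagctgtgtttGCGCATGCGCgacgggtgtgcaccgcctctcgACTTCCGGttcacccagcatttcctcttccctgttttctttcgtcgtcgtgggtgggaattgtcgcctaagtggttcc
COX5B: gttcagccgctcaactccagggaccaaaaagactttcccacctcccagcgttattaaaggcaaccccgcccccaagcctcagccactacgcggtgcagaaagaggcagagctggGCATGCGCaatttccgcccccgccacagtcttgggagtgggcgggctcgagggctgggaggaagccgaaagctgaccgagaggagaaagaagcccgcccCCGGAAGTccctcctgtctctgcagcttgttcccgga
SDHB: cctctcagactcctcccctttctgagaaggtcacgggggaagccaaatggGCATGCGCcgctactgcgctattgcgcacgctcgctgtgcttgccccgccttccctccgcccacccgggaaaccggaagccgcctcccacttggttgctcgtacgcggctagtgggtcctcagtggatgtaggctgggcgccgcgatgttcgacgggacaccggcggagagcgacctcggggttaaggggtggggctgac
NDUFA5: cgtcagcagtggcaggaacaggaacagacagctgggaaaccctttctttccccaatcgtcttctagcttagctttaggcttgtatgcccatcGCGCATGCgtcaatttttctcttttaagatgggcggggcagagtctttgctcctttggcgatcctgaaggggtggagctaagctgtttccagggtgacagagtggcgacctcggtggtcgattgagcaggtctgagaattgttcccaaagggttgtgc
COX8A: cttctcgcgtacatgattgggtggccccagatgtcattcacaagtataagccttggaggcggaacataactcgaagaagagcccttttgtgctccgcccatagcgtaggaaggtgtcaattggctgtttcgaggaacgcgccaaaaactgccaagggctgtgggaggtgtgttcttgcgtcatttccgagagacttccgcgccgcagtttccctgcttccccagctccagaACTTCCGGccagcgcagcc

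The median log2 fold change of the subunits with the ETS core was -0.27, against -0.31 for those without it. For the NRF1 core the values were -0.32 and -0.27. The presence of either motif therefore went with a difference in median of under 0.1, and no test was made.

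The knockdown was checked first. FLI1, whose 3′ part is in the fusion transcript, had 11.3, 12.7 and 14.2 FPKM in the untreated libraries 1 to 3, against 2.91, 4.29 and 3.68 FPKM in the treated libraries 1 to 3. Values of each group are given below in this order. It fell by 1.57 on the log2(FPKM + 1) scale (SE 0.18, adjusted p = 0.000676, limma). The Ewing sarcoma markers NKX2-2 (-1.19), NR0B1 (-2.56) and STEAP1 (-2.18) fell as well. CD99 had a log2 fold change of -0.53 (limma adjusted p = 0.067) and was measured at 84.2 FPKM or more in all 6 libraries. Leukocyte markers (PTPRC, CD3E and CD14) and muscle markers (MYH7, ACTA1 and CKM) were at or below 0.669 FPKM in every library, while the summed endothelial markers (PECAM1, VWF and CDH5) were at 0.614 to 0.806 FPKM in EWSR1::FLI1 high and 1.12 to 2.17 FPKM in EWSR1::FLI1 low. Of the epithelial markers, KRT18 was measured at 38.8 to 107 FPKM and KRT8 at 1.81 to 3.63 FPKM. EPCAM was at 0.327 to 0.876 FPKM and CDH1 at 0.161 to 0.547 FPKM. The part of other cells in the results below was not tested.

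One library stood apart from the rest. EWSR1::FLI1 low replicate 1 had a mean of 9.71 FPKM over all rows, against 12.7 to 13.9 in the other 5 libraries, and 2.16% of its reads lay on rows with a mean below 1 FPKM, against 0.845 to 1.19%. Reads on genes ranged from 6980361 to 16658933, with the lowest number in that same library and the highest in EWSR1::FLI1 low replicate 3. The limma fold changes of single members are therefore given next to their levels in each library, and medians and the values that moved most are given again with EWSR1::FLI1 low replicate 1 left out.

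Most members were lower in EWSR1::FLI1 low, by modest amounts, and none passed the threshold. Of the 85 members tested, 77 had a negative log2 fold change and 8 a positive one, with a median of -0.29. The median was -0.05 over all genes tested and -0.22 over 6349 other genes with a mean of at least 10 FPKM. Negative values were also the majority in these backgrounds, at 8492 of the 15504 genes tested and 4248 of the 6349 other abundant genes. At an adjusted p under 0.01, limma called 0 of 85 members, against 7.88% of all genes tested. In other fits, limma-voom on the recovered reads called 1 of 85, against 15.4% of all genes, and limma with sample quality weights called 16 of 85, against 30.6%. At an unadjusted p under 0.05, 21 members were lower and 0 higher, where 18.7% of all genes and 1728 of the 6349 other abundant genes were lower. At an adjusted p under 0.05 the count was 2 members lower, NDUFA5 and NDUFC1, and 0 higher, against backgrounds of 9.91% lower and 9.87% higher.

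The spread within EWSR1::FLI1 low was wide. The median coefficient of variation of the subunits was 5.71% among the EWSR1::FLI1 high libraries and 19.98% among the EWSR1::FLI1 low libraries. In 31 of 85 members the 3 EWSR1::FLI1 low libraries were all below the 3 EWSR1::FLI1 high libraries, where 23.6% of all genes were, and 2197 of the 6349 other genes of at least 10 FPKM. In 0 of 85 members were they all above, where 17.5% of all genes were. The 95% interval of the fold change included 0 in 58 of the 77 subunits.

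**Figure D1:**
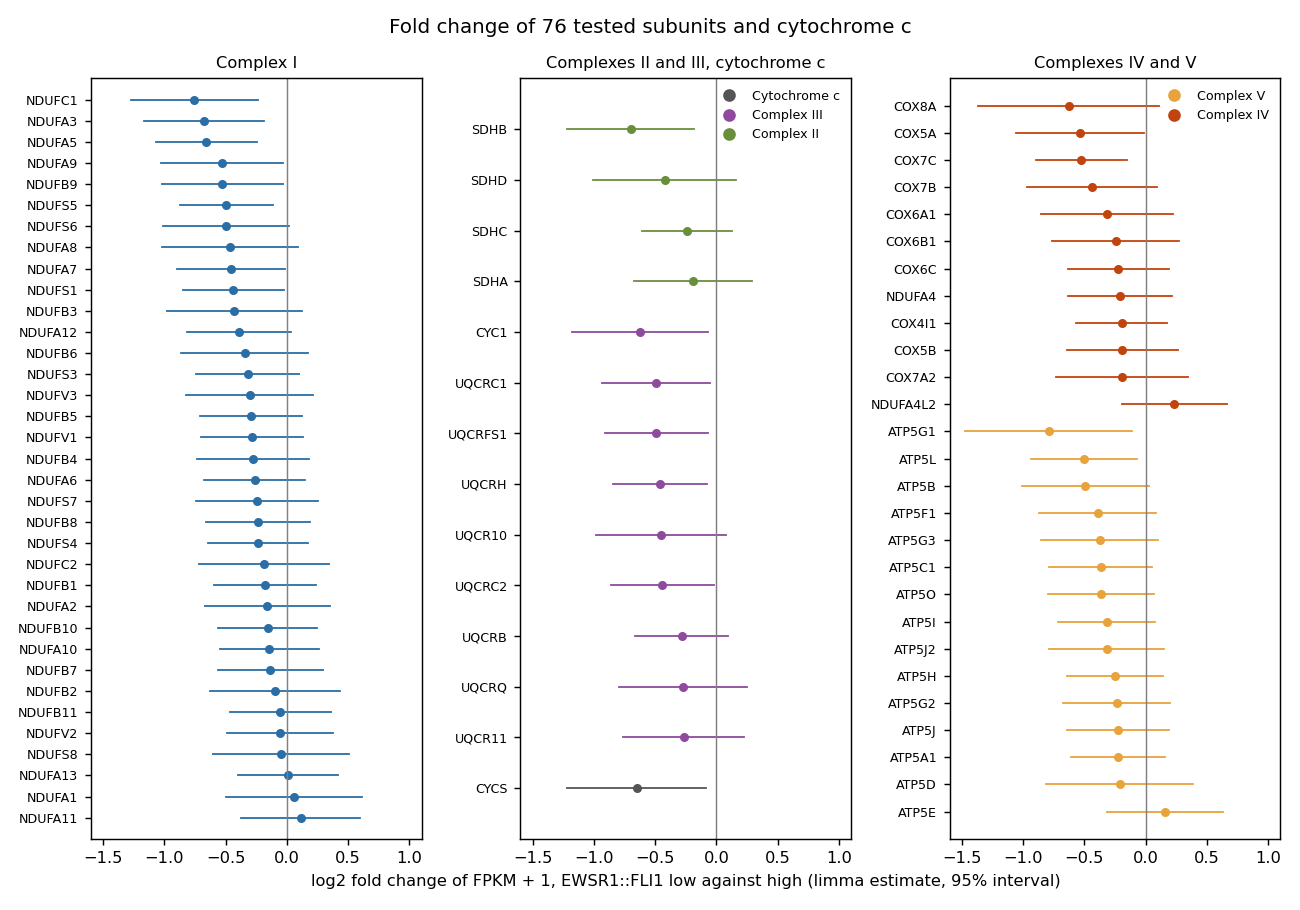
Log2 fold change of 76 of the tested subunits and cytochrome c, EWSR1::FLI1 low against high (x axis, log2(FPKM + 1) scale; 3 libraries a group), with points for the limma estimate and lines for its 95% interval. Points lie left of 0 in 71 of the 76, and 57 of the intervals include 0.

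The members did not move alike in the 3 treated libraries. Relative to the mean of the EWSR1::FLI1 high libraries, the median member was at -0.51 in EWSR1::FLI1 low replicate 1, at -0.37 in replicate 2 and at -0.02 in replicate 3 (log2 scale). The other genes of at least 10 FPKM were at -0.50, -0.15 and 0.01 in the same libraries. In replicate 1 the members thus lay where abundant genes lay, whereas in replicate 2 they lay lower than those genes. EWSR1::FLI1 low replicate 3 was the highest of its group for 73 of 77 subunits, and its values were below all EWSR1::FLI1 high libraries for 28, within their range for 27 and above it for 22. The lowest of the 6 libraries was EWSR1::FLI1 low replicate 1 for 55 subunits and replicate 2 for 18. With replicate 1 left out the median of the members was -0.20 and that of the other abundant genes -0.07, and with replicate 3 left out it was -0.45.

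**Figure D2:**
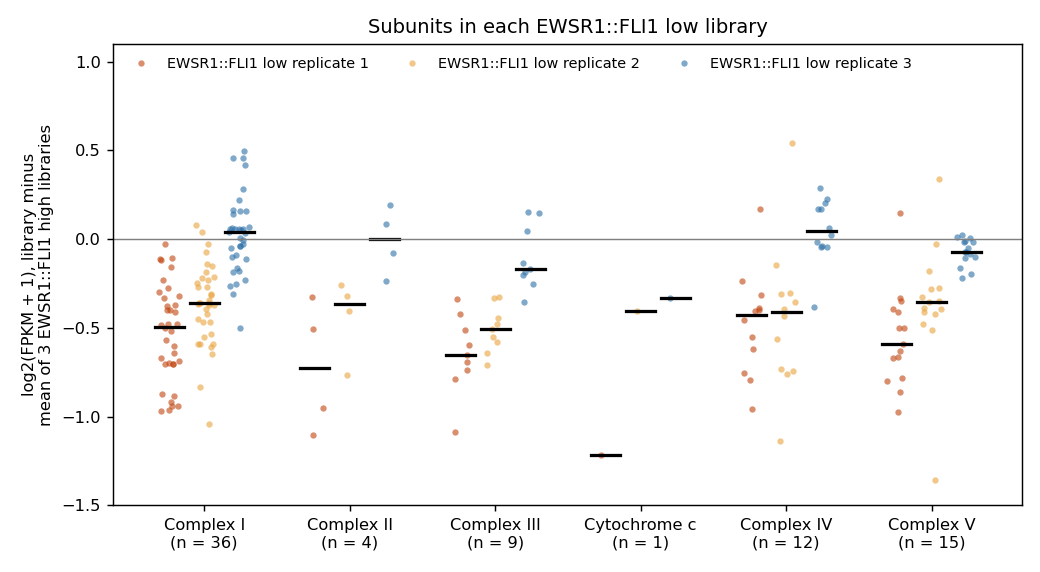
Difference of each subunit's log2(FPKM + 1) in each EWSR1::FLI1 low library from the mean of the 3 EWSR1::FLI1 high libraries (y axis), by complex, with 1 point a gene and black bars for medians. Medians of complex I were -0.49, -0.36 and 0.04 in replicates 1, 2 and 3.

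When libraries were scaled instead on the other genes of at least 10 FPKM, an alternative chosen after the data were seen, the median of the members moved to -0.08 and 62 of 85 were negative. The median of all genes moved to 0.11 under this scaling. That of the other abundant genes moved to -0.01, with 3219 of 6349 negative. By complex, the medians were -0.06 for I, -0.13 for II, -0.24 for III, -0.02 for IV and -0.10 for V. At an adjusted p under 0.05, 7 members then passed, of which NDUFA3, NDUFA5, NDUFC1, SDHB, CYCS and ATP5L were lower and COX7A2L was higher. Under the same scaling, 10.3% of all genes were called lower and 17.4% higher, larger shares than the 6 and 1 of 85 members.

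Complex I takes electrons from NADH and hands them to ubiquinone. Of its 36 genes, 33 were negative, and the median was -0.27. In 10 of the 36 the treated libraries were all below the controls, where 23.6% of all genes and 2197 of the 6349 other abundant genes were. The 7 core genes of the electron path had a median of -0.25 and the 29 accessory genes one of -0.28. Without EWSR1::FLI1 low replicate 1 the median of the complex was -0.18. NDUFS1, a core iron-sulfur subunit, had 102, 99.2 and 103 FPKM in EWSR1::FLI1 high, against 61.9, 78.6 and 84.8 FPKM in EWSR1::FLI1 low. The groups did not overlap, and the log2 fold change was -0.44 (SE 0.18, adjusted p = 0.125). NDUFV1, which holds the site of NADH oxidation, had 53.9, 50.8 and 56.5 FPKM against 38.1, 42.9 and 51.7 FPKM (-0.29, SE 0.18).

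Accessory subunits held the largest differences of complex I. NDUFA5 (chr7:123177051-123197958, GRCh37, positions of GENCODE genes here and below) had 35.6, 39.0 and 38.9 FPKM in EWSR1::FLI1 high, against 20.1, 24.7 and 26.4 FPKM in EWSR1::FLI1 low. Its 3 treated libraries were all lower, including replicate 3, and its log2 fold change of -0.66 (SE 0.18) had the smallest adjusted p of the members, 0.035, with a range of 0.002 to 0.144 over the alternatives. NDUFC1 (chr4:140188034-140223705) had 27.1, 31.3 and 32.5 FPKM against 15.6, 14.2 and 24.2 FPKM, a log2 fold change of -0.75 (SE 0.23, adjusted p = 0.047, range 0.001 to 0.171). Leaving out each library in turn, NDUFA5 ranged from -0.74 to -0.55 and NDUFC1 from -0.98 to -0.61. NDUFA3 had 21.3, 24.8 and 22.6 FPKM against 11.4, 12.4 and 18.9 FPKM (-0.68, SE 0.22, adjusted p = 0.058). NDUFS5, with the highest mean of all members (425 FPKM), was at -0.50 (SE 0.17, adjusted p = 0.070). At the other end, NDUFA1, NDUFA11 and NDUFA13 had positive values of at most 0.11, each smaller than its SE.

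Complex II oxidizes succinate and belongs to the tricarboxylic acid cycle as well. Its 4 genes were all negative, with values from -0.70 to -0.19 and a median of -0.33, which was -0.18 without EWSR1::FLI1 low replicate 1. The treated libraries were all below the controls in 1 of the 4, where 23.6% of all genes and 2197 of the 6349 other abundant genes were. SDHB (chr1:17345159-17380527), the iron-sulfur subunit, had 133, 135 and 127 FPKM in EWSR1::FLI1 high, against 60.8, 77.1 and 112 FPKM in EWSR1::FLI1 low. The groups did not overlap, and the log2 fold change was -0.70 (SE 0.23, adjusted p = 0.064). SDHA, the flavoprotein, had 44.7, 43.98 and 48.1 FPKM against 31.8, 38.02 and 52.3 FPKM, so that replicate 3 of EWSR1::FLI1 low was the highest library (-0.19, SE 0.21). SDHA has near-identical pseudogenes, and how the authors' counting shared reads with them is not known. The membrane anchors were SDHC, at 5.69, 6.49 and 6.68 FPKM against 4.80, 4.83 and 5.88 FPKM (-0.24, SE 0.16), and SDHD, at 36.99, 37.7 and 38.2 FPKM against 19.0, 28.2 and 39.99 FPKM (-0.42, SE 0.26). Leaving out EWSR1::FLI1 low replicate 1 moved SDHD to -0.16, SDHA to -0.03 and SDHB to -0.50. Differences between the fold changes of subunits were not tested.

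Complex III passes electrons from ubiquinol to cytochrome c. All 9 of its genes were negative, with a median of -0.45. In 6 of the 9 the treated libraries were all below the controls, where 23.6% of all genes and 2197 of the 6349 other abundant genes were. The summed level of the complex was 797, 822 and 781 FPKM in EWSR1::FLI1 high and 508, 552 and 719 FPKM in EWSR1::FLI1 low. CYC1, the cytochrome c1 subunit, had 86.0, 77.4 and 80.4 FPKM against 37.6, 51.8 and 73.9 FPKM, a log2 fold change of -0.62 (SE 0.25, adjusted p = 0.110). UQCRFS1, the Rieske iron-sulfur protein, had 64.7, 66.1 and 63.4 FPKM against 38.4, 46.2 and 54.2 FPKM (-0.49, SE 0.19, adjusted p = 0.099). The core proteins UQCRC1 (70.2, 67.8 and 80.1 against 41.5, 57.5 and 56.6 FPKM, -0.49, SE 0.20) and UQCRC2 (86.1, 83.6 and 87.3 against 54.2, 60.1 and 76.2 FPKM, -0.44, SE 0.19) showed the same order of groups. UQCRH, the most abundant gene of the complex, was at 280.4 FPKM on average (-0.46, SE 0.17). A near-identical copy, UQCRHL, is listed beside it, and reads may be split between the pair. Without EWSR1::FLI1 low replicate 1 the median of the complex was -0.34 and CYC1 was at -0.39.

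Cytochrome c carries electrons from complex III to complex IV and also starts the caspase cascade when released. CYCS had 66.5, 69.2 and 68.7 FPKM in EWSR1::FLI1 high, against 28.7, 51.3 and 53.9 FPKM in EWSR1::FLI1 low. The 3 treated libraries were all lower, and replicate 1 was the lowest. The log2 fold change was -0.65 (SE 0.25, adjusted p = 0.1001), and -0.37 without that library.

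Complex IV reduces oxygen. Of its 18 genes, 12 passed the filter and 11 of these were negative. The median was -0.23, or -0.15 without EWSR1::FLI1 low replicate 1. The other genes of at least 10 FPKM had a median of -0.22, or -0.07 without that library. Under scaling on these genes the complex had a median of -0.02, with 7 of 12 negative. The treated libraries were all below the controls in 3 of the 12, where 23.6% of all genes and 2197 of the 6349 other abundant genes were. COX4I1, which is needed for assembly, had 204, 207 and 198 FPKM against 153, 184 and 197 FPKM (-0.20, SE 0.16). COX5A had 60.5, 56.3 and 57.2 FPKM against 33.05, 33.8 and 56.2 FPKM (-0.53, SE 0.23, adjusted p = 0.139). COX5B, the zinc-binding subunit, had 129, 133 and 117 FPKM against 102, 93.4 and 143 FPKM (-0.19, SE 0.20), its highest value being in a treated library. COX7C, the most abundant gene of the complex at a mean of 314 FPKM, was lower in the 3 treated libraries at 269.7, 220.8 and 283 FPKM against 391, 386 and 334 FPKM (-0.53, SE 0.16, adjusted p = 0.052). COX8A split the treated libraries most, with 23.1 and 20.2 FPKM in replicates 1 and 2 and 52.8 FPKM in replicate 3, against 48.3, 45.5 and 43.3 FPKM in the controls (-0.63, SE 0.33). Without EWSR1::FLI1 low replicate 1, COX4I1 was at -0.09. The directions of COX4I1 and COX5B turned positive, by at most 0.04, under other scalings.

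**Figure D3:**
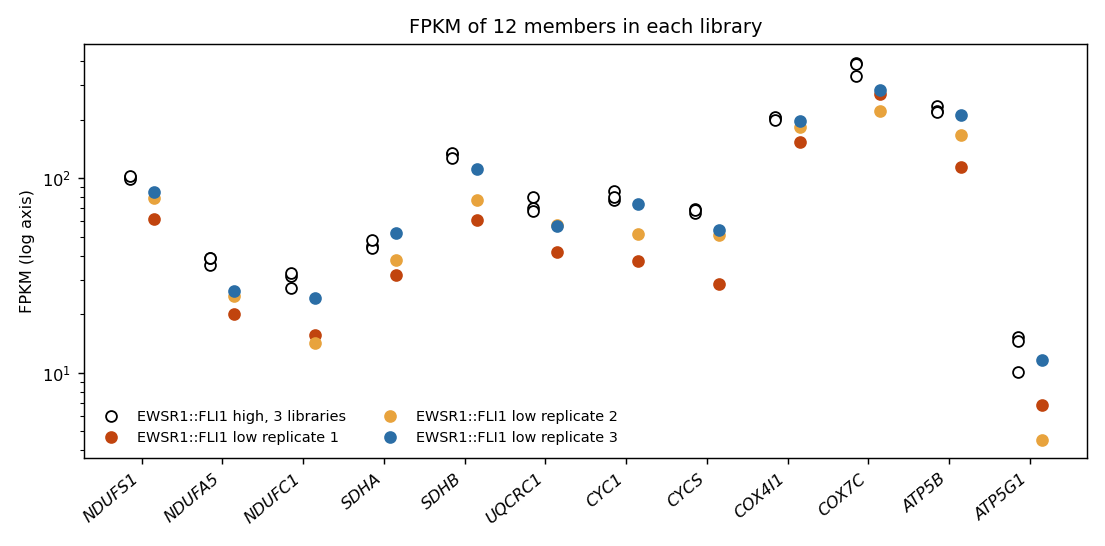
FPKM (log axis) of 12 members in each of the 3 EWSR1::FLI1 high libraries (open circles) and the 3 EWSR1::FLI1 low libraries (filled, by replicate). NDUFA5 and SDHB have groups that do not overlap, whereas SDHA has its highest value, 52.3 FPKM, in EWSR1::FLI1 low replicate 3.

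Several subunits of complex IV exist as tissue or condition specific isoforms, and for each of these except NDUFA4L2 the rarer isoform made up at most 1.803% of the summed FPKM of its pair in any library. COX6A2, the heart and muscle isoform of COX6A1, was listed at 0 reads in the 6 libraries. COX4I2, the isoform of lung and of low oxygen, had 0 to 1 read a library. COX7A1, the muscle isoform, had 0 to 2 reads a library. COX6B2, COX7B2 and COX8C, known from testis, had at most 5 reads a library. Counts up to 3 reads were at the floor of detection used here, so no fold change was read from them. NDUFA4L2, the low-oxygen relative of the complex IV subunit NDUFA4, had 4, 4 and 4 reads against 6, 10 and 7 reads, not scaled to depth. In FPKM it was at 0.321, 0.422 and 0.435 against 0.568, 1.03 and 0.378, with an overlap of the groups. Its share of the NDUFA4 pair was 1.07% ± 0.21 (SD, n = 3) in EWSR1::FLI1 high and 2.13% ± 1.21 (SD, n = 3) in EWSR1::FLI1 low. That difference did not pass (exact permutation test, two-sided p = 0.300, where the smallest p that 3 against 3 can give is 0.1).

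Complex V makes ATP. Of its 15 genes, 14 were negative, with a median of -0.32 (-0.19 without EWSR1::FLI1 low replicate 1). In 7 of the 15 the treated libraries were all below the controls, where 23.6% of all genes and 2197 of the 6349 other abundant genes were. The alpha and beta subunits form the catalytic head of complex V. ATP5B, the beta subunit, had 234, 221 and 219 FPKM in EWSR1::FLI1 high, against 114, 168 and 212 FPKM in EWSR1::FLI1 low (-0.49, SE 0.23, adjusted p = 0.165), and its fold change was -0.25 without EWSR1::FLI1 low replicate 1. ATP5A1, the alpha subunit, had 174, 162 and 159 FPKM against 131, 129 and 166 FPKM (-0.23, SE 0.17), with an overlap of the groups. ATP5H, of the peripheral stalk and the most abundant gene of the complex at 229 FPKM, was at -0.25 (SE 0.17), or -0.13 without EWSR1::FLI1 low replicate 1. ATP5E, of the central stalk, was the exception of the complex at 0.16 (SE 0.21). Its copy ATP5EP2, at 0.22 (SE 0.20), may share reads with it, and the sign of ATP5E turned when EWSR1::FLI1 high replicate 1 was left out.

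Subunit c of the rotor ring is coded by 3 genes that give the same mature protein. ATP5G1 (chr17:46970127-46973233) had the largest decrease of the members, with 15.3, 10.1 and 14.6 FPKM against 6.79, 4.53 and 11.6 FPKM, a log2 fold change of -0.79 (SE 0.30, adjusted p = 0.099). It rested on 24 to 117 reads a library, and EWSR1::FLI1 low replicate 3 lay within the range of the controls. ATP5G2 was the most abundant of the 3, with 66.6% ± 1.11 (SD, n = 3) of the summed FPKM in EWSR1::FLI1 high and 71.1% ± 3.38 (SD, n = 3) in EWSR1::FLI1 low. ATP5G1 made up 12.2% ± 1.30 and 8.53% ± 2.55 (SD, n = 3 each). An exact permutation test gave a two-sided p of 0.2 for each difference. The smallest p that 3 against 3 can give is 0.1, so this test could not pass either share and does not show that they were unchanged.

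COX7A2L (chr2:42560686-42652228), which helps complexes III and IV to join in supercomplexes, had a value opposite in sign to most members. It had 74.8, 81.4 and 78.6 FPKM in EWSR1::FLI1 high, against 75.5, 93.1 and 108 FPKM in EWSR1::FLI1 low. Treated replicates 2 and 3 were above all controls, and treated replicate 1 was within their range. The log2 fold change was 0.22 (SE 0.19, adjusted p = 0.448), and under scaling on the abundant genes it was 0.44 (adjusted p = 0.011, with a range of 0.011 to 0.700 over the alternatives). ATP5SL, a complex I assembly gene that carries an ATP synthase name, was at -0.49.

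Assembly factors insert cofactors and join subunits without staying in the complexes. Of 53 factors tested, 48 were negative, and the median was -0.42 (-0.26 without EWSR1::FLI1 low replicate 1). At an adjusted p under 0.05, 12 were called lower, where 9.91% of all genes and 910 of the 6349 other abundant genes were. SDHAF3, an assembly factor of the iron-sulfur subunit of complex II, fell by 1.15 on the log2 scale (SE 0.22, adjusted p = 0.008), from 15.8, 15.6 and 14.5 FPKM to 5.52, 5.10 and 9.02 FPKM. It was the single factor of the 53 called at 0.01, where 7.88% of all genes were called. NDUFAF4 and ECSIT, factors of complex I, were at -0.95 and -0.98 with non-overlapping groups, and COX17, a copper chaperone of complex IV, was at -0.89, with 153, 160.2 and 152 FPKM against 56.4, 89.9 and 114 FPKM. COX14 was the largest value above 0, at 0.35. Whether factors and subunits differed was not tested.

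Of 21 regulators of mitochondrial genes, 2 were called at an adjusted p under 0.01, a share close to the 7.88% of all genes tested. At an adjusted p under 0.05, 5 of the 21 were lower, namely TFAM, MTERF1, PPARGC1B, POLRMT and POLG2. At that cut 9.91% of all genes and 910 of the 6349 other abundant genes were lower. TFAM, which packages mitochondrial DNA and starts its transcription, fell by 1.07 (SE 0.21, adjusted p = 0.008), with 34.7, 36.1 and 41.4 FPKM against 13.5, 17.9 and 21.0 FPKM. MTERF1, a mitochondrial transcription termination factor, fell by 1.17 (SE 0.18, adjusted p = 0.003), from 20.3, 21.0 and 22.7 FPKM to 8.41, 7.91 and 10.7 FPKM. Their groups did not overlap, and their fold changes with the scaling on abundant genes were -0.87 and -0.97. Of the nuclear regulators, NRF1 (-0.33, SE 0.18), GABPA (-0.24, SE 0.20), ESRRA (-0.77, SE 0.26) and MYC (-0.26, SE 0.32) did not pass, and MYC turned to 0.05 without EWSR1::FLI1 low replicate 1. PPARGC1A, a coactivator of mitochondrial biogenesis, was measured at no more than 0.997 FPKM in any library.

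Other mitochondrial lists were lower as well. The tricarboxylic acid cycle and pyruvate dehydrogenase (17 genes tested, 15 negative) had a median of -0.39. FH, the fumarase, was at -0.82 (adjusted p = 0.030), and 0 of the 17 genes were called at 0.01, where 7.88% of all genes were. Carriers and porins (7 genes) had a median of -0.44. Without EWSR1::FLI1 low replicate 1 these medians were -0.21 and -0.17. Mitochondrial ribosomal proteins (77 genes) had a median of -0.55, while cytosolic ribosomal proteins (78 genes) had one of -0.15. Of the mitochondrial ribosomal proteins, 17 were lower at an adjusted p under 0.05, where 9.91% of all genes and 910 of the 6349 other abundant genes were. At an adjusted p under 0.01, 3 of the 77 were called, 2 of them lower. At that threshold 7.88% of all genes and 538 of the 6349 other abundant genes were called. Under scaling on the abundant genes the medians of both ribosomal lists were -0.34 and 0.06, and without EWSR1::FLI1 low replicate 1 they were -0.36 and -0.08. In the 3 treated libraries the mitochondrial ribosomal proteins lay at -0.89, -0.53 and -0.19 and the respiratory chain members at -0.51, -0.37 and -0.02. Subunits that the name rule misses, NDUFAB1, USMG5, C14orf2 and ATPIF1, ranged from -0.59 to -0.23.

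**Figure D4:**
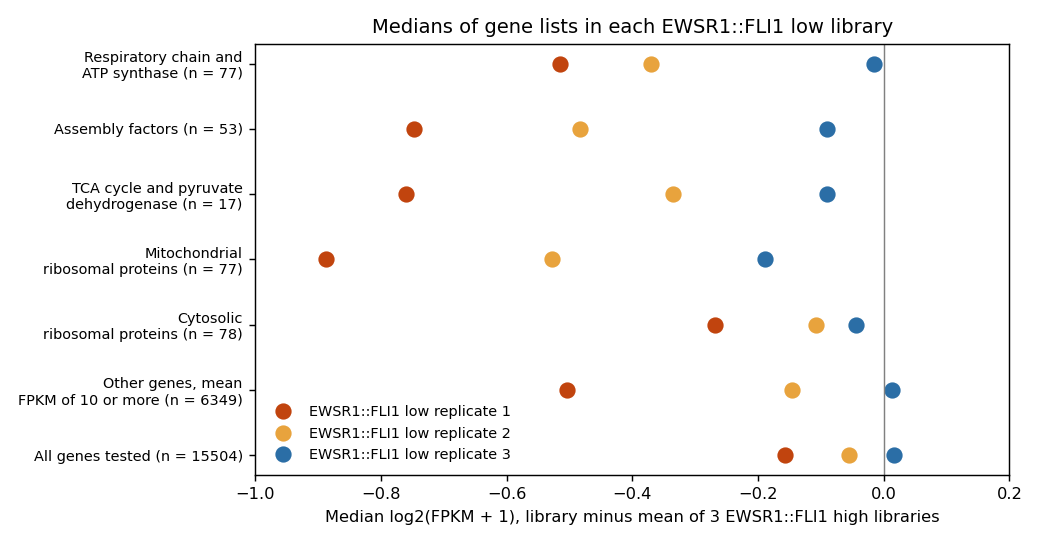
Median of each gene list in each EWSR1::FLI1 low library (x axis, log2(FPKM + 1) minus the mean of the 3 EWSR1::FLI1 high libraries). Replicate 1 lies lowest and replicate 3 highest for every list plotted, all genes included.

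The fold change did not go with gene length or level among the 77 subunits (Spearman rho -0.04 with length and -0.03 with mean FPKM, across genes that share libraries and are not independent). Fewer cells of one state and less RNA per cell cannot be told apart in these bulk libraries.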

How the data were processed

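RNAseq libraries of total RNA, depleted of ribosomal RNA, were made with a ScriptSeq v2 kit. Per the labels and methods, the authors aligned paired reads to GRCh37 with STAR (2.5.0b) and used Cufflinks (2.2.1) and DESeq2 (1.6.3). The authors deposited FPKM values per gene and library, without pooling replicates, and a table of their comparison. Of that table the mean signal, the normalized count per gene averaged over the 6 libraries by the authors, was used, and only to recover reads: FPKM values above 0 were whole multiples of 1 read within 0.1 reads (100%). Its fold changes and p-values were not used.

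The 15504 genes that averaged 0.5 FPKM or more entered a limma fit (version 3.58.1, R 4.3.3, eBayes with trend) on log2(FPKM + 1), with Benjamini-Hochberg adjustment over all of them and a threshold of 0.01. Fold changes on this scale understate changes of low genes. Shares were compared with exact permutation tests. The limma step was tested on simulated data. The members and gene lists were chosen with earlier results of these data known. Named members were the 5 largest changes in each direction, core subunits, isoform pairs, the most abundant gene of each complex, and any called, with few regulators and list members besides. A single member is counted but not reported here by name. Reads on near-identical copies may be split, and strand use in counting is not given in the sources used here. Alternatives were other pseudocounts, filters, scalings, sample weights, limma-voom, a replicate block and leaving out each library. Other tools were Python 3.11.15, pandas 2.3.3, scipy 1.17.1 and matplotlib 3.10.9.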

Additional observations from a re-analysis of the deposited data

How the results depend on the processing

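The number of members called at an adjusted p under 0.01 was 0 with limma, and also 0 with a pseudocount of 0.1, no filter, a filter of 1 FPKM, no trend, scaling on genes of at least 10 FPKM, or subunits alone. It was 1 with median-ratio scaling, quantile normalization, limma-voom on recovered reads, or that scaling with EWSR1::FLI1 low replicate 1 left out. It was 16 with sample quality weights, a fit that called 30.6% of all genes, and 2 at an adjusted p under 0.05. Of these fits, those with 0 members called 0.47% to 13.6% of all genes, and those with 1 member called 11.7% to 18.7%. Leaving out each library in turn gave 0 to 2 members, in fits that called 3.02% to 15.7% of all genes. The 2 were NDUFC1 and COX8A without EWSR1::FLI1 low replicate 3, where 6.96% of all genes were called. The cause was not tested. The member median ranged from -0.45 to -0.20 as each library was left out, and from -0.34 to -0.08 under the other settings. FLI1 was between -1.68 and -1.46 as each library was left out and between -1.79 and -1.37 under the other settings, and at -1.57 it had an adjusted p of 0.016 with no filter.

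With a replicate block, 0 members were called, where 11% of all genes were, and FLI1 was at -1.57. Same-numbered samples correlated at 0.27, 0.09 and 0.12 in their deviations. The same number was the best match for EWSR1::FLI1 low replicates 1 and 3, whereas replicate 2 correlated better with another number (0.19). All other correlations between unlike numbers were negative, from -0.289 to -0.0078. Whether the numbers mark a pairing was thus not settled, and the main fit did not use them.

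Signs turned for UQCRBP1 (-0.0166 with quality weights) and for ATP5E, which ranged from -0.0044 (without EWSR1::FLI1 high replicate 1) to 0.33 as libraries were left out. With scaling on genes of at least 10 FPKM, values above 0 were found for SDHA (0.0247), COX4I1 (0.0204), COX5B (0.0258), NDUFA4 (0.00302) and COX7A2 (0.0247). With replicate 1 of EWSR1::FLI1 low also left out, SDHA was at 0.0312 and COX7A2 at 0.0509. Quantile normalization gave 0.0439 for COX4I1, 0.0254 for COX5B, 0.00283 for ATP5H and 0.0110 for COX7A2. Of the alternative values for single members, these 13 turned in sign, 20 passed the threshold and 611 kept direction and side of it. Depth limits the rarer isoforms of complex IV, read at 0 to 5 counts.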
